A study of Homo sapiens with 9 samples.

Results

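The miR-23/27/24 family is encoded by a pair of paralogous clusters, miR-23a/27a/24-2 and miR-23b/27b/24-1. It was followed in the human colorectal carcinoma line HCT116 and in its sublines HCT-FU-c and HCT-Oxa-c. The members were a list of mature strands of these hairpins, matched by name to the count table, and they make up 10 of the 1198 mature miRNAs listed. All 10 were among the 367 miRNAs that passed the filter on low counts. HCT116 is an established epithelial line deficient in mismatch repair, and here it stands for the untreated parental cells. HCT-FU-c was selected from it under continuously rising concentrations of 5-fluorouracil and HCT-Oxa-c under continuously rising concentrations of oxaliplatin, and neither the dose nor the time of selection is given in the labels. Each drug is represented by 1 subline, so that the drug and the history of that subline cannot be told apart. Each line was grown as 3 biological replicates, and the 9 libraries measured small RNA of whole cultures. Fewer cells that make a miRNA and less of it per cell cannot be told apart in such libraries.

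A miRNA is cut from a stem-loop precursor, the hairpin, as a duplex of a 5p and a 3p strand. One strand, the guide, is usually retained in the Argonaute protein, and the other, the passenger, is mostly degraded. The guide recognises messenger RNAs mainly through its seed, the bases that follow the first one, and miRNAs of one seed are regarded as one family with largely shared targets. The hairpins of a cluster are cut from 1 primary transcript, and for the miR-23/27/24 clusters the 3p strands are the usual guides. miR-23 is known to repress glutaminase, miR-27 is known as an inhibitor of the adipogenic factor PPARG, and miR-24 is known for targets in cell cycle progression and apoptosis.

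The sequences of all 10 members were found in the RefSeq annotation of GRCh38.p14. They are shown because the paralogous strands are so alike, which sets what the counts can tell apart. Capitals mark the seed, bases 2 to 8 from the 5′ end.
hsa-miR-23a-3p: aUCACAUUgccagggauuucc
hsa-miR-23b-3p: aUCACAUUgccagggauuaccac
hsa-miR-27a-3p: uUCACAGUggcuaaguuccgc
hsa-miR-27b-3p: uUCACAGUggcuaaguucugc
hsa-miR-24-3p: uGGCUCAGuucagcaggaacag
hsa-miR-27a-5p: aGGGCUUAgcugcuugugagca
hsa-miR-27b-5p: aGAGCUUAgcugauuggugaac
hsa-miR-23b-5p: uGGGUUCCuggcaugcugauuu
hsa-miR-24-1-5p: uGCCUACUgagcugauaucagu
hsa-miR-24-2-5p: uGCCUACUgagcugaaacacag

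Both miR-23 guides carry the seed UCACAUU and both miR-27 guides the seed UCACAGU. Over the 21 positions that they share, miR-23a-3p and miR-23b-3p differ at 1 position, U19A, and miR-27a-3p and miR-27b-3p at 1 position, C19U, counted from the 5′ end with the a paralog first. A read that ends before position 19 is therefore the same for both paralogs, and how such reads were counted, or how many mismatches were allowed, is not given in the sources used here. The 5p strands are easier to separate, with 8 differing positions between miR-27a-5p and miR-27b-5p and 6 between miR-24-1-5p and miR-24-2-5p. Mature miR-24-3p is identical from both of its hairpins, so each of its values is the sum over both clusters. The hairpins are shown with miR-24-3p in capitals.
MIR24-1: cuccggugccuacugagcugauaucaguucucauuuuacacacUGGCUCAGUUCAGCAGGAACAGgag
MIR24-2: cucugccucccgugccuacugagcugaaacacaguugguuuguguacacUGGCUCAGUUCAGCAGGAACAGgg

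The hairpins MIR23A, MIR27A and MIR24-2 occupy 373 bases of the minus strand at chr19:13836287-13836659. GENCODE 29 annotates there the antisense gene AC020916.1, whose transcript of 1 exon holds all of them. MIR23B, MIR27B and MIR24-1 occupy 881 bases of the plus strand at chr9:95085208-95086088 and lie in introns of the protein-coding gene C9orf3. In a protein-coding transcript of 15 exons they lie in intron 14. In a transcript of the same gene annotated for nonsense-mediated decay, MIR24-1 lies in exon 7.

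Library totals ran from 856383 to 2207538 counts, with replicate 3 the shallowest within each line. The members together took 1.78% to 4.37% of the counts of a library, and miR-21-5p, the most abundant miRNA, took 40.0% to 57.1%. Levels are given as CPM, which removes the difference in total counts, with TMM normalization, which assumes that most miRNAs do not differ between libraries. A count of 3, the upper limit that a count of 0 allows, corresponded to between 1.34 and 4.01 CPM. Limits and intervals for counts cover counting error only, as PCR copies of a molecule may have been counted. All 4 epithelial marker miRNAs were found in each line, with summed levels of 9568 to 12650 CPM over the 9 libraries. Of 9 markers of blood, mesenchymal, liver, neuronal and muscle cells, 8 were analysed here, and their summed level was 183 to 865 CPM. The epithelial sum was mostly miR-200c-3p, at 9124 to 11370 CPM. miR-192-5p (35 to 70 CPM) and miR-194-5p (48 to 202 CPM) overlapped with the mesenchymal miR-143-3p (60 to 561 CPM) and miR-145-5p (64 to 168 CPM). The erythroid miR-451a (0 to 253 CPM) and the liver miR-122-5p (0 to 60 CPM) also reached into these ranges. Differences were tested with edgeR's quasi-likelihood F test over all 367 miRNAs, and a call is an adjusted p (Benjamini-Hochberg) below 0.05. A second model took the replicate number as a block, because the replicate 3 libraries of the lines deviated together, away from replicates 1 and 2. Across lines, replicates 1 and 2 were about as alike between the numbers as within a number.

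In HCT-Oxa-c the 2 guides of the b cluster, miR-23b-3p and miR-27b-3p, were 5.34-fold and 4.32-fold as high as in HCT116, and a guide of the a cluster, miR-23a-3p, was 1.99-fold lower. These were the 3 members called, 2 higher and 1 lower. Over all miRNAs tested 1.36% were called higher and 1.09% lower. With the replicate block all 10 members were called, 5 higher and 5 lower, against 9.54% and 5.18% of all miRNAs. The 5 that rose under the block were the strands made only by the b cluster, and the 5 that fell were the a cluster strands and miR-24-3p. In 5 members every HCT-Oxa-c library lay above every HCT116 library and in 4 below, which held for 8.99% and 7.08% of all miRNAs. The median log2 fold change was 2.42 over the 5 b cluster strands and -0.92 over the 4 a cluster strands, both without miR-24-3p, and -0.01 over all miRNAs tested. miR-23b-5p passed the filter on low counts only through HCT-Oxa-c, where it was high. miR-24-1-5p passed it only through replicates 1 and 2 of HCT-Oxa-c and replicate 1 of HCT-FU-c, where it was higher than in HCT116. The place of both strands in these counts and in the b cluster median is no support for them.

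miR-23b-3p, the guide strand of MIR23B, measured 595, 702 and 683 CPM in replicates 1, 2 and 3 of HCT116. It was at 886, 766 and 1030 CPM in HCT-FU-c and at 2664, 2881 and 5023 CPM in HCT-Oxa-c. The 3 lines did not overlap, HCT-Oxa-c was the highest, and its replicate 3 stood above the others. In HCT-Oxa-c against HCT116 the log2 fold change was 2.42 (SE 0.30, SE being the standard error, edgeR adjusted p = 0.00193), and the call held under every alternative and without any 1 library. The log2 ratio of libraries of the same number was 2.16, 2.04 and 2.88.

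miR-27b-3p, the guide strand of MIR27B, was at 3062, 2863 and 3186 CPM in HCT116, at 3424, 3709 and 3862 CPM in HCT-FU-c and at 10214, 10759 and 18432 CPM in HCT-Oxa-c. Again no library of one line overlapped with another line, and HCT-Oxa-c replicate 3 was the highest of all. In HCT-Oxa-c it differed from HCT116 by a log2 fold change of 2.11 (SE 0.27, edgeR adjusted p = 0.00193), and this call also held under every alternative. By mean level hsa-miR-27b-3p moved from rank 38 of all listed miRNAs in HCT116 to rank 10 in HCT-Oxa-c, and hsa-miR-23b-3p from rank 72 to rank 35.

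miR-23a-3p shares its seed with miR-23b-3p and comes from the a cluster. Its level was 8581, 10626 and 8488 CPM in HCT116, 8417, 6764 and 9833 CPM in HCT-FU-c and 4439, 4538 and 4917 CPM in HCT-Oxa-c. The HCT-Oxa-c libraries were alike and lay below the other lines, which overlapped each other. The log2 fold change in HCT-Oxa-c was -1.0 (SE 0.21, edgeR adjusted p = 0.0471) and with the block also -1.0 (edgeR adjusted p = 9.29e-05). The call without the block was lost when any 1 library other than HCT116 replicate 3 or HCT-FU-c replicate 2 was left out, and the adjusted p rose to at most 0.238, without HCT116 replicate 2. It was lost as well with RLE size factors (edgeR adjusted p = 0.0704), with TMM leaving out the most abundant miRNA (0.0574), with no filter on low counts (0.303), with at least 10 counts required in every library (0.0886) and with the 6 libraries compared alone (0.0738).

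miR-27a-3p, the paralogous miR-27 guide, was at 3712, 4925 and 3319 CPM in HCT116, at 3740, 4206 and 3299 CPM in HCT-FU-c and at 2282, 2040 and 2325 CPM in HCT-Oxa-c. The HCT-Oxa-c libraries again lay below all others, and the other lines overlapped. The log2 fold change of -0.85 (SE 0.22) missed the threshold without the block (edgeR adjusted p = 0.0965) and passed it with the block (-0.83, edgeR adjusted p = 0.000517).

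miR-24-3p, which both clusters make, was at 14942, 17461 and 4512 CPM in HCT116, at 11783, 18513 and 4074 CPM in HCT-FU-c and at 9422, 9499 and 4274 CPM in HCT-Oxa-c. The lines overlapped, and replicate 3 was the lowest library in each of them. In HCT-Oxa-c against HCT116 the log2 fold change was -0.67 (SE 0.62, edgeR adjusted p = 0.875), within the spread of the replicates. The block gave -0.53 (edgeR adjusted p = 0.0436), and the log2 ratio of libraries of the same number was -0.67, -0.88 and -0.08, so that replicate 3 showed almost no difference.

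The 5p strands are the usual passengers of these hairpins and were far less abundant than the guides. miR-27b-5p was at 22.4, 15 and 65.5 CPM in HCT116, at 12.9, 13.7 and 44.1 CPM in HCT-FU-c and at 151, 163 and 447 CPM in HCT-Oxa-c. HCT-Oxa-c lay above both other lines, which overlapped, and replicate 3 was the highest library in each line. Its log2 fold change of 2.91 (SE 0.74) in HCT-Oxa-c missed the threshold without the block (edgeR adjusted p = 0.0857) and passed it with the block (2.95, edgeR adjusted p = 1.02e-09). The strand is thus called higher where the replicate number is taken into account, and it differs from its paralog at more positions than the guide does.

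miR-23b-5p had only 3, 4 and 4 counts in HCT116 and 2, 3 and 4 counts in HCT-FU-c, but 38, 42 and 15 counts in HCT-Oxa-c. These counts correspond to 2.04 to 5.35 CPM in HCT116, 1.51 to 4.77 CPM in HCT-FU-c and 15.4 to 19.9 CPM in HCT-Oxa-c. The parental and 5-fluorouracil lines were near the limit of detection and HCT-Oxa-c was above them in each library. Over the summed counts, 95 against 11, the ratio of HCT-Oxa-c to HCT116 was 6.11 with a 95% counting interval from 3.27 to 12.7. The edgeR log2 fold change was 2.46 (SE 0.58, adjusted p = 0.0718) without the block and 2.53 (edgeR adjusted p = 0.0041) with it.

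miR-24-1-5p, the 5p strand that only the b cluster makes, had 2, 4 and 0 counts in the HCT116 libraries, 18, 10 and 1 counts in those of HCT-FU-c and 16, 29 and 4 counts in those of HCT-Oxa-c. HCT-Oxa-c did not overlap with HCT116 in CPM, while HCT-FU-c overlapped with both. The ratio of the summed counts of HCT-Oxa-c to HCT116, 49 against 6, was 5.78 with a 95% counting interval from 2.47 to 16.5. edgeR gave a log2 fold change of 2.40 (SE 0.99, adjusted p = 0.390), and 2.51 with the block (edgeR adjusted p = 0.0349). At this depth the size of the difference is poorly determined.

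miR-24-2-5p, the corresponding strand of the a cluster, was at 126, 123 and 53.5 CPM in HCT116, at 107, 107 and 42.9 CPM in HCT-FU-c and at 48.3, 49.2 and 14.4 CPM in HCT-Oxa-c. HCT-Oxa-c lay below HCT116 in every library and overlapped with HCT-FU-c through replicate 3, which was the lowest library in each line. For HCT-Oxa-c edgeR gave a log2 fold change of -1.42 (SE 0.55, adjusted p = 0.319) and -1.46 with the block (edgeR adjusted p = 7.28e-05). In HCT-Oxa-c the 2 miR-24 passenger strands, each from 1 of the hairpins that make miR-24-3p, lay on opposite sides of HCT116. Neither was called without the block. miR-24-1-5p passed the filter on low counts only through libraries where it was high, so its side is given as a value and not as support.

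miR-27a-5p, the passenger of MIR27A, was at 142, 178 and 123 CPM in HCT116, at 62.0, 78.3 and 96.5 CPM in HCT-FU-c and at 82.9, 93.5 and 76.0 CPM in HCT-Oxa-c. Both sublines lay below HCT116 in every library and overlapped with each other. The log2 fold change in HCT-Oxa-c was -0.81 (SE 0.26, edgeR adjusted p = 0.206) and -0.81 with the block (edgeR adjusted p = 0.012). Over all alternatives the members not called without the block reached adjusted p-values of at most 0.303 for miR-23b-5p, 0.340 for miR-27b-5p, 0.531 for miR-27a-3p, 0.780 for miR-24-2-5p, 0.806 for miR-27a-5p, 0.876 for miR-24-1-5p and 0.999 for miR-24-3p in HCT-Oxa-c against HCT116.

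Comparing HCT-FU-c to HCT116 asks whether the subline selected under 5-fluorouracil had the same differences. No member was called by edgeR without the block, and 0.0% of all miRNAs were called higher or lower, while 15 miRNAs, 1 of them a member, had an unadjusted p below 0.05. DESeq2 called 1 miRNA higher and 3 lower in the same libraries, and hsa-miR-27a-5p was the 1 member among them (DESeq2 adjusted p = 0.0438). With the block edgeR called 1.63% of all miRNAs higher and 3.81% lower, and again miR-27a-5p was the 1 member called. Its log2 fold change was -0.91 (SE 0.26, edgeR adjusted p = 0.616), and -0.92 with the block (edgeR adjusted p = 0.0173), with 0.997 as the highest adjusted p among the alternatives. The libraries of HCT-FU-c and HCT116 did not overlap for miR-23b-3p and miR-27b-3p, with HCT-FU-c above, and for miR-27a-5p, with HCT-FU-c below. Of all miRNAs 4.36% did not overlap in the higher direction and 4.36% in the lower.

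The b cluster guides showed small differences in HCT-FU-c that missed the threshold. The log2 fold change was 0.44 for miR-23b-3p (95% interval -0.20 to 1.07, edgeR adjusted p = 0.968) and 0.27 for miR-27b-3p (-0.30 to 0.85, adjusted p = 0.997). Among the a cluster guides it was -0.15 for miR-23a-3p (-0.63 to 0.33) and -0.09 for miR-27a-3p (-0.59 to 0.41). The upper bounds for the b cluster guides in HCT-FU-c lie below the lower bounds in HCT-Oxa-c, which were 1.75 for miR-23b-3p and 1.51 for miR-27b-3p. For miR-24-1-5p the log2 fold change of 2.06 rested on 29 against 6 counts (ratio 4.30, 95% counting interval 1.76 to 12.7) and had an edgeR adjusted p of 0.913, or 0.154 with the block. miR-24-2-5p at -0.23, miR-24-3p at -0.10, miR-23b-5p at -0.42 and miR-27b-5p at -0.55 on the log2 scale also missed the threshold.

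The sublines were compared directly to test whether their differences from HCT116 were unequal. The shared HCT116 libraries do not enter the difference itself, but they enter the filter, the normalization and the estimate of spread behind its p-values. edgeR called 4 members higher in HCT-Oxa-c and none of the 10 lower, where 3.54% of all miRNAs were called higher and 0.817% lower. At an unadjusted p below 0.05 edgeR had 2 members lower, and DESeq2 called 2 lower, miR-23a-3p and miR-27a-3p in both cases. Of all 367 miRNAs, 62 had an unadjusted edgeR p below 0.05 in either direction, and DESeq2 called 12 lower. The 4 members that edgeR called higher were both strands of MIR23B and both strands of MIR27B. miR-23b-5p is among them only because HCT-Oxa-c, where it was high, carried it past the filter on low counts, so it lends no support to this count or to that of libraries without overlap. The log2 difference was 1.98 for miR-23b-3p (SE 0.29, edgeR adjusted p = 0.00454) and 1.84 for miR-27b-3p (SE 0.26, edgeR adjusted p = 0.00443). It was 2.88 for miR-23b-5p (SE 0.60, edgeR adjusted p = 0.0329) and 3.46 for miR-27b-5p (SE 0.76, edgeR adjusted p = 0.0369). The calls of both guides held without any 1 library. That of miR-23b-5p was lost without HCT-FU-c replicate 1 or 2 or any 1 HCT-Oxa-c library, and that of miR-27b-5p without these or HCT116 replicate 1, with adjusted p-values of up to 0.155 and 0.160, both without HCT-FU-c replicate 2.

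With the block the same 4 members were called higher, and miR-23a-3p (-0.84, edgeR adjusted p = 0.00035), miR-27a-3p (-0.74, edgeR adjusted p = 0.000976) and miR-24-2-5p (-1.22, edgeR adjusted p = 0.000339) were called lower in HCT-Oxa-c. Among the alternatives the adjusted p of these 3 reached 0.437, 0.563 and 0.726. Over all miRNAs the block gave 14.7% higher and 11.7% lower. In 4 members every HCT-Oxa-c library was above and in 2, miR-23a-3p and miR-27a-3p, below every HCT-FU-c library, against 12.3% and 10.6% of all miRNAs. miR-24-1-5p, miR-24-3p and miR-27a-5p were called in neither model, with log2 differences of 0.34 (95% interval -1.56 to 2.24), -0.57 (-1.97 to 0.83) and 0.10 (-0.49 to 0.68).

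The summed dose of a seed family is the sum of the CPM of strands with the same seed, given here as a description without a test, since 3 against 3 libraries cannot reach an exact permutation p below 0.05. The miR-23-3p dose was 9892 ± 1244 CPM in HCT116, 9232 ± 1667 in HCT-FU-c and 8154 ± 1555 in HCT-Oxa-c (mean ± SD, n = 3), and the lines overlapped. The HCT-Oxa-c libraries held 7103, 7419 and 9940 CPM, of which the first 2 lay below every library of the other lines, the lowest of which was 7530 CPM in HCT-FU-c replicate 2, and replicate 3 lay among them. The miR-27-3p dose was 7022 ± 676, 7413 ± 435 and 15351 ± 4685 CPM (mean ± SD, n = 3), with 12496, 12799 and 20758 CPM in the HCT-Oxa-c libraries. HCT-Oxa-c was 2.19-fold as high as HCT116 and did not overlap with either line, while HCT116 and HCT-FU-c overlapped.

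The 4 a cluster strands without miR-24-3p summed to 13466 ± 2087 CPM in HCT116, 12251 ± 1060 in HCT-FU-c and 6968 ± 322 in HCT-Oxa-c (mean ± SD, n = 3). The 5 b cluster strands summed to 3736 ± 183, 4592 ± 313 and 16938 ± 6061 CPM (mean ± SD, n = 3). The b cluster sum was thus below the a cluster sum in each library of HCT116 and HCT-FU-c and above it in each library of HCT-Oxa-c. HCT-FU-c was 1.23-fold as high as HCT116 in the b cluster sum without overlap, and HCT-Oxa-c was 4.53-fold as high. All 10 members together gave 29507 ± 8359 CPM in HCT116, 28299 ± 5940 in HCT-FU-c and 31638 ± 3389 in HCT-Oxa-c (mean ± SD, n = 3), with overlap between all lines.

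**Figure D1:**
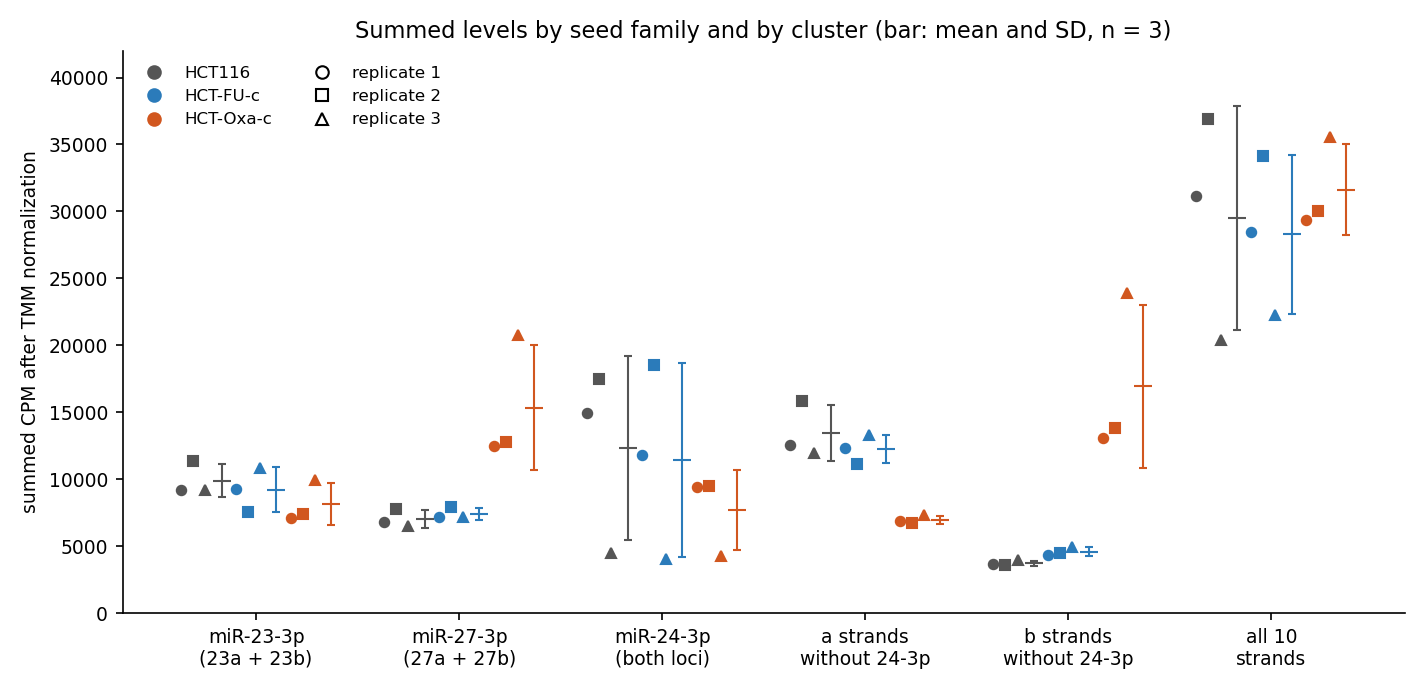
Summed CPM by seed family, by cluster and over all members in the 9 libraries (symbols), with the mean and SD of 3 libraries beside them. HCT-Oxa-c stands apart in the miR-27-3p family and in both cluster sums, and the lines overlap in the miR-23-3p family, in miR-24-3p and in the sum of all 10.

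The share of the b paralog within a pair needs no normalization between libraries, since both counts come from the same library. miR-23b-3p made up 6.71% ± 0.66 of miR-23-3p in HCT116, 9.73% ± 0.39 in HCT-FU-c and 42.3% ± 7.17 in HCT-Oxa-c (mean ± SD, n = 3). No library of one line overlapped with another line, and the Wilson 95% intervals of single libraries reached 0.375 to 0.996 percentage points to either side. miR-27b-3p made up 43.6% ± 6.26 of miR-27-3p in HCT116, 49.5% ± 3.84 in HCT-FU-c and 84.9% ± 3.60 in HCT-Oxa-c (mean ± SD, n = 3). HCT-Oxa-c lay above the other lines, which overlapped.

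The shares among the less similar 5p strands lay in the same order, HCT-Oxa-c being above HCT116 in each library. miR-23b-5p and miR-24-1-5p passed the filter on low counts only through libraries where they were high. The shares of these strands are therefore given as values and not as support. Of the miR-27 5p counts, miR-27b-5p held 18.7% ± 14.2 in HCT116, 21.1% ± 8.93 in HCT-FU-c and 71.2% ± 12.4 in HCT-Oxa-c (mean ± SD, n = 3). Of the miR-24 5p counts, miR-24-1-5p held 1.11% ± 1.14, 6.21% ± 4.48 and 19.3% ± 3.94 (mean ± SD, n = 3), on totals of 18 to 139 counts in HCT-Oxa-c. In HCT-Oxa-c the b cluster thus still gave the smaller part of the miR-24 5p counts and the larger part of the miR-27 5p counts. For miR-23 the 5p pair gave only 3 to 51 counts a library, and miR-23b-5p held 43.5% ± 12.3, 51.1% ± 26.9 and 90.9% ± 8.83 (mean ± SD, n = 3).

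The share of the passenger strand in its hairpin is likewise a ratio within a library. The 5p strand held 3.58% ± 0.099 of the MIR27A counts in HCT116 and 3.68% ± 0.629 in HCT-Oxa-c, and these lines overlapped. In HCT-FU-c it held 2.10% ± 0.650 (mean ± SD, n = 3), below the libraries of both other lines. The lower miR-27a-5p of HCT-FU-c therefore stood beside a miR-27a-3p with a log2 fold change of -0.09, whereas in HCT-Oxa-c the log2 fold changes of the 2 strands were -0.81 and -0.85. For MIR27B the share was 1.09% ± 0.809, 0.623% ± 0.438 and 1.77% ± 0.516 in HCT116, HCT-FU-c and HCT-Oxa-c (mean ± SD, n = 3), with overlap between HCT116 and the other lines. For MIR23B it was 0.508% ± 0.235, 0.279% ± 0.159 and 0.565% ± 0.23, with overlap between all lines. hsa-miR-23a-5p, the passenger of MIR23A, had 0 to 12 counts in a library.

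Replicate 3 stood apart in some members in the same way in each line. miR-24-3p in replicate 3 was 0.279, 0.269 and 0.452 times the mean of replicates 1 and 2 in HCT116, HCT-FU-c and HCT-Oxa-c. The other miR-24 strand with enough counts, miR-24-2-5p, gave 0.429, 0.4 and 0.295 times. miR-27b-5p was 3.5, 3.33 and 2.85 times as high in replicate 3. Over all tested miRNAs the median of this ratio was 1.05, 0.95 and 1.01, and the range from the 5% to the 95% quantile was 0.138 to 4.43, 0.215 to 3.55 and 0.183 to 3.66, which holds the values of these members. The labels name no batch for the replicates, and the part of replicate 3 in the differences between lines was not tested beyond leaving it out. With replicates 1 and 2 alone edgeR called 9 members in HCT-Oxa-c against HCT116, 4 higher and 5 lower. Of all 380 miRNAs tested in that fit, 28 were called higher and 15 lower.

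The order of the members by mean CPM differed between the lines. The strands are 21 to 23 bases long, and the efficiency with which each is ligated and amplified is not known, so that the order is one of read levels. In HCT116 it was miR-24-3p, miR-23a-3p, miR-27a-3p, miR-27b-3p, miR-23b-3p, miR-27a-5p, miR-24-2-5p, miR-27b-5p, miR-23b-5p and miR-24-1-5p. The libraries of neighbours overlapped between miR-24-3p and miR-23a-3p, from miR-27a-5p to miR-27b-5p, and between the last pair. In HCT-FU-c the order was nearly the same, except that miR-24-2-5p stood before miR-27a-5p and miR-24-1-5p before miR-23b-5p, each pair with overlap. Neighbours overlapped there as well between miR-24-3p and miR-23a-3p, between miR-27a-3p and miR-27b-3p and between miR-27b-5p and miR-24-1-5p. In HCT-Oxa-c it was miR-27b-3p, miR-24-3p, miR-23a-3p, miR-23b-3p, miR-27a-3p, miR-27b-5p, miR-27a-5p, miR-24-2-5p, miR-23b-5p and miR-24-1-5p. Neighbours overlapped there from miR-24-3p to miR-23b-3p and between miR-24-2-5p and miR-23b-5p, while miR-27b-3p stood above miR-24-3p in each library.

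Some other strands share a seed or a locus with the members. hsa-miR-23c has the miR-23 seed and had at most 2 counts in a library. hsa-miR-3074-5p and hsa-miR-3074-3p come from the strand opposite to MIR24-1, where miR-3074-5p overlaps miR-24-3p over 20 positions. miR-3074-5p had at most 16 counts and miR-3074-3p at most 2, beside 3376 to 35216 counts of miR-24-3p. miR-128-3p, whose seed CACAGUG is that of miR-27 moved by a base, was at 1333 ± 237 CPM in HCT116, 1441 ± 159 in HCT-FU-c and 1481 ± 266 in HCT-Oxa-c (mean ± SD, n = 3), with overlap between all lines.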

How the data were processed

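Total RNA was extracted from 3 biological replicates each of HCT116, HCT-FU-c and HCT-Oxa-c, and small RNA libraries (NEXTflex v3, 16 PCR cycles) were sequenced on an Illumina MiSeq. The submitters' processing notes name CASAVA 1.8, Bowtie 1.1.2, DESeq2 and the build GRCh38.p7, without further settings. The authors deposited for each mature miRNA its raw read counts and a normalized signal, the count divided by a size factor per library, which was not tested. Lines and replicates were taken from the labels. The counts were fitted with edgeR 4.0.16 (R 4.3.3): filterByExpr (minimum count 10, minimum total 15), TMM, and a quasi-likelihood model with the line as factor, fitted to all 9 libraries, and a prior count of 0.125 for log2 fold changes, tested on simulated data. Same-number ratios had 1 CPM added. The alternatives were other scalings, filters and sample sets, DESeq2 1.42.0, leaving out each library, and the replicate number as a block. The numbers come from the labels, which name no batch. Deviations from the line means correlated at 0.395 to 0.754 between libraries of the same number and at -0.675 to 0.608 otherwise. All negative values came from pairs of replicate 3 with another number. Pairs of replicate 1 with replicate 2 gave 0.408 to 0.608, against 0.395 to 0.644 for same-number pairs of these replicates. The block treats libraries of one number as paired, but the correlations set only replicate 3 apart and do not show 3 matched sets. p-values measure the spread between cultures of 1 subline per drug. The biological coefficient of variation was 0.458 without and 0.174 with the block. The text names all members, strands of the same seed or locus, and the 3 miRNAs most correlated with miR-27b-3p and with miR-27a-3p. Members, lists and tests were chosen with earlier results of these data known. Sequences and hairpin positions are from RefSeq GRCh38.p14, transcripts from GENCODE 29.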

Additional observations from a re-analysis of the deposited data

Results flagged for a closer look

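For 4 members the sublines differed from HCT116 to an unequal degree, by the test of the difference itself (edgeR, adjusted p below 0.05 over all miRNAs tested). The log2 difference between the sublines was 1.98 for miR-23b-3p, 2.88 for miR-23b-5p, 1.84 for miR-27b-3p and 3.46 for miR-27b-5p, and the HCT-Oxa-c libraries were higher in 3 of 3 replicate numbers for each of them. miR-23b-5p passed the filter on low counts only through HCT-Oxa-c, where it was high, so its difference is given as a value and not as support for the other 3.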

How the results depend on the processing

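In HCT-Oxa-c against HCT116 the 3 members called became 10 with the replicate block, 5 with total counts, 6 with DESeq2, 9 with DESeq2 and the block, 9 with replicates 1 and 2 only, and 2 to 5 on leaving out 1 library. In HCT-FU-c against HCT116 the 0 called became 1 with the block, with DESeq2, with both and with replicates 1 and 2 only, and stayed at 0 on leaving out any 1 library. In HCT-Oxa-c against HCT-FU-c the 4 called became 7 with the block, with DESeq2 and the block and with replicates 1 and 2 only, and 2 to 4 on leaving out 1 library. Apart from the members named in the report the block changed no call. Over all miRNAs the block gave 54 calls in place of 9, 20 in place of 0 and 97 in place of 16. In the same order of comparisons, DESeq2 gave 23, 4 and 43 calls over all miRNAs, and DESeq2 with the block 51, 23 and 85. Total counts gave 12, 0 and 17, and replicates 1 and 2 only gave 43, 13 and 67. Leaving out 1 library gave 4 to 12, 0, and 6 to 23.

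Of 561 log2 fold changes under alternatives, 483 kept direction and side of the threshold, 45 passed it newly, 23 lost it and 10 changed sign, and none of those 10 was called. In HCT-FU-c against HCT116, leaving out 1 library gave log2 fold changes from -0.20 to 0.042 for miR-27a-3p, -1.35 to 0.28 for miR-27b-5p, -0.64 to 0.26 for miR-24-3p and -0.53 to 0.035 for miR-24-2-5p, and with total counts miR-27a-3p (0.096) and miR-24-3p (0.13) turned positive. The positive values came without HCT116 replicate 2 for miR-27a-3p, without HCT116 replicate 3 for miR-27b-5p, without HCT116 replicate 1 or 2 or HCT-FU-c replicate 3 for miR-24-3p, and without HCT-FU-c replicate 3 for miR-24-2-5p. In HCT-Oxa-c against HCT-FU-c the value turned negative for miR-27a-5p with total counts (-0.063), and for miR-24-1-5p it ranged from -0.070 to 1.36, the negative value coming without HCT-Oxa-c replicate 2. Total counts moved the median of all miRNAs by 0.17 and -0.19 in these comparisons, and gave 8 higher and 4 lower calls over all miRNAs in HCT-Oxa-c against HCT116 in place of 5 and 4, and 11 and 6 against HCT-FU-c in place of 13 and 3. The causes of the other changes were not tested. Depth limits miR-23b-5p and miR-24-1-5p, which did not pass every filter.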

Other observations

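Outside the clusters, the 3 tested miRNAs whose log2 CPM was most like that of miR-27b-3p over the 9 libraries were miR-487b-3p (Pearson r = 0.949), miR-449c-5p (0.949) and miR-889-3p (0.927). These r-values are a description: the points share their libraries and fall into lines, and the median r with all other tested miRNAs was -0.03. miR-487b-3p and miR-889-3p belong to the large imprinted miRNA cluster of the DLK1-DIO3 region. miR-487b-3p was at 3.93 ± 1.59 CPM in HCT116, 6.29 ± 3.26 in HCT-FU-c and 33.8 ± 14.2 in HCT-Oxa-c (mean ± SD, n = 3). miR-889-3p was at 14.3 ± 5.01, 9.58 ± 0.996 and 52.3 ± 10.1 CPM, and miR-449c-5p at 9.62 ± 1.31, 8.40 ± 2.34 and 27.6 ± 9.92 CPM, in the same order of lines. Within the clusters r with miR-27b-3p was 0.992 for miR-23b-3p and -0.885 for miR-27a-3p.

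Most like miR-27a-3p were miR-30a-5p (r = 0.922), miR-429 (0.893) and miR-181c-3p (0.873), with a median r of 0.07 over all other tested miRNAs. miR-30a-5p was at 1468 ± 161 CPM in HCT116, 706 ± 463 in HCT-FU-c and 38.1 ± 15.6 in HCT-Oxa-c (mean ± SD, n = 3). miR-429, a miRNA of the epithelial miR-200 family, was at 2013 ± 218, 2033 ± 331 and 1634 ± 151 CPM. miR-181c-3p was at 6.70 ± 2.64, 7.46 ± 1.56 and 0.946 ± 0.899 CPM, with 0 in HCT-Oxa-c replicate 3. Its r thus rests on few counts.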
